A study of Rattus norvegicus with 18 samples.

Results

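Signal from the adrenergic receptor genes Adra1a, Adra1b, Adra2a, Adra2b and Adrb1, the dopamine receptor genes Drd1 and Drd2 and the receptor kinase gene Grk4 was compared in rat kidney. These 8 genes were taken by symbol from the 10969 genes that the arrays cover with probe sets of a single symbol, and all 8 were present, with 15 probe sets of the 26202 that are not controls. A probe set is a group of short probes for 1 transcript and gives 1 signal per array. Kidneys of the x3A congenic rat (3 samples) were set against those of the Dahl salt-sensitive (S) rat (3 samples), where x3A is the last part of the congenic strain's name. The congenic strain has the S genetic background and carries a chromosome 9 segment from the R strain, in which the labels place a blood pressure quantitative trait locus, so that the strains share most of their genome. There were 18 arrays in all, since total kidney RNA of every sample went onto an array of types A, B and C. The labels used here give no diet, age or sex, and none says outright that the samples are separate animals. The p-values below therefore stand against a spread that may be technical. In whole kidney, fewer cells of a type and less RNA per cell cannot be told apart.

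Adrenergic receptors are G protein-coupled receptors for noradrenaline and adrenaline, which reach the kidney from sympathetic nerves and the adrenal medulla. Alpha-1 receptors couple to Gq and contract vascular smooth muscle, alpha-2 receptors couple to Gi and lower cyclic AMP, and beta-1 receptors couple to Gs and raise renin release from juxtaglomerular cells. Dopamine made in the proximal tubule acts on D1-like receptors, which couple to Gs and reduce sodium reabsorption, and on D2-like receptors, which couple to Gi. Grk4 is a G protein-coupled receptor kinase that phosphorylates D1 receptors and so uncouples them from their G protein, and its human variants have been studied in salt-sensitive hypertension.

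For none of the 8 genes was a difference between congenic and Dahl S kidneys detected beyond the spread between samples. Of the 15 probe sets, 9 from 7 genes were bright enough to test, and limma called 0 of the 9 at an adjusted p of 0.05, where it called 0 (0%) of all 15721 tested probe sets. At an unadjusted limma p under 0.05 there were also 0 of 9 members, against 2.49% of all tested probe sets. The 3 congenic values overlapped the 3 Dahl S values in all 9 tested member probe sets, while the strains did not overlap in 7.08% of all tested probe sets. The untested member probe sets, which that share does not cover, overlapped too. The 9 log2 differences (congenic minus Dahl S) had a median of 0.10, with 7 above and 2 below 0, and the median over all tested probe sets was 0. Drd2 was the gene with no tested probe set. None of the 8 genes lies on chromosome 9 in the GRCr8 annotation. Adra2a and Adrb1 are on chromosome 1, Adra2b on 3, Drd2 on 8, Adra1b on 10, Grk4 on 14, Adra1a on 15 and Drd1 on 17.

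Most of these receptors gave little signal in whole kidney. The filter level, the 40th percentile of mean log2 signal, lay at 21.2 signal units on type A, 39.3 on type B and 37.7 on type C, and a probe set with a mean below it was not tested. Of the 9 tested probe sets, 6 were above the level in all 6 samples: those of Adra1b, Adra2b and Grk4 and 3 of Adra2a. Of the 6 untested ones, 5 were below it in all 6 samples, among them the Drd2 probe set. The level is a percentile and not a detection call, so signals on either side of it are not shown to be above background.

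**Figure D1:**
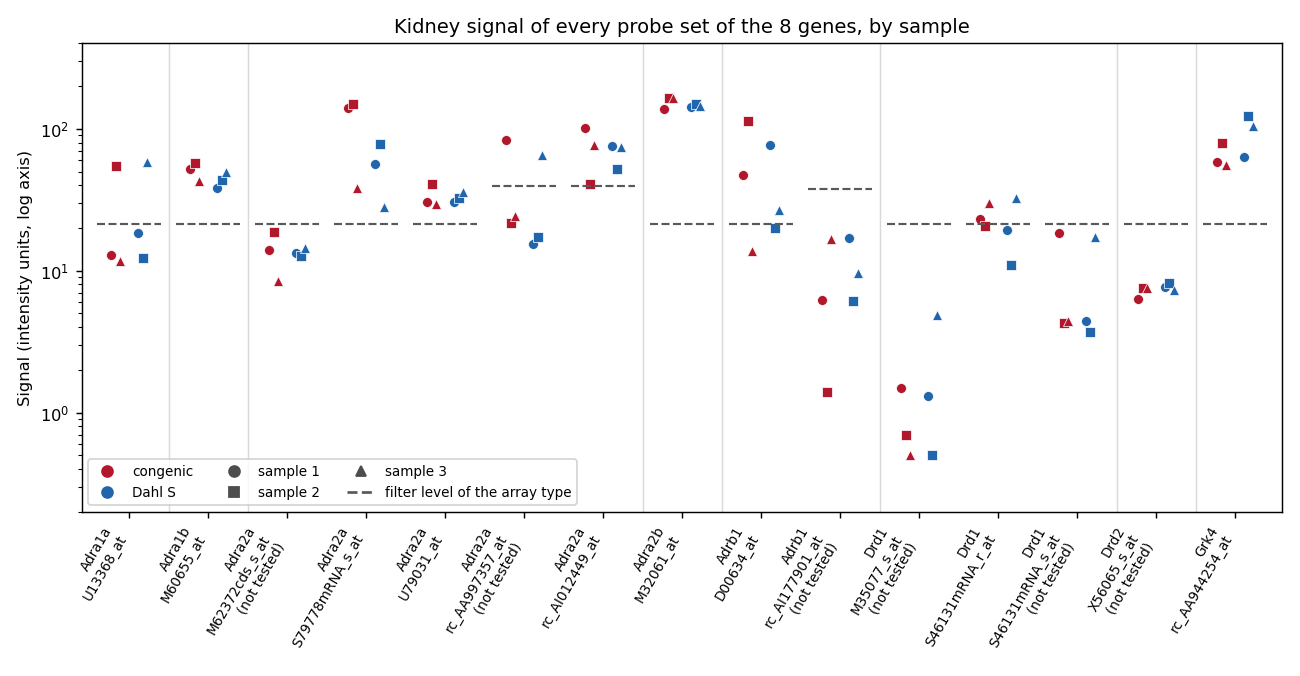
Signal (intensity units, log axis) of the 15 probe sets of the 8 genes in the 3 congenic samples (red, left) and the 3 Dahl S samples (blue, right), with a symbol for each sample number and a dashed line at the filter level of the array type. The 2 strains overlap in every probe set, Adra2b and Grk4 lie above the line in all 6 samples, and Drd2 lies below it in all 6.

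Adra2b, the alpha-2B adrenergic receptor, was the most evenly measured of the 8. Its signal was 138.4, 165.3 and 164.8 in congenic samples 1, 2 and 3, against 142.4, 148.8 and 144.8 in Dahl S samples 1, 2 and 3. All 6 values lay within a 1.19-fold range, and congenic sample 1 was the lowest. The log2 difference was 0.10 (SE 0.19, n = 3 per strain, limma adjusted p = 0.9997), with a 95% confidence interval of -0.33 to 0.53. That interval is the narrowest of the 9 tested probe sets, so a change in Adra2b beyond 0.53 log2 units in either direction lies outside it. Its within-strain SD was 0.11 log2 units, and 4.31% of the tested type A probe sets had a smaller one.

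Grk4 had the smallest unadjusted p of the 8 genes. The brightest Adra2a probe set differed by more. Its p was smaller than that of Grk4 under quantile normalization, median scaling and the replicate block. The same held without congenic sample 3 and without Dahl S sample 2. The single Grk4 probe set read 58.7, 80.0 and 56.0 in the congenic samples, against 62.9, 123.6 and 103.9 in the Dahl S samples. Congenic sample 2 was above Dahl S sample 1, so the groups overlapped, although the 2 highest values were both from Dahl S. The geometric means were 64.1 in congenic and 93.1 in Dahl S kidneys, a ratio of 0.688. The log2 difference was -0.54 (SE 0.33, 95% interval -1.30 to 0.22) and did not pass (limma adjusted p = 0.9997). Leaving out Dahl S sample 1 gave -0.82 (under 0.05 before adjustment, limma adjusted p = 0.9998), and leaving out Dahl S sample 2 gave -0.34.

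The promoters of these 2 genes are shown because Adra2b had the narrowest interval and Grk4 the smallest unadjusted p as fitted here. The 250 bases before the annotated start are given as RefSeq has them in GRCr8, the reference strain and neither of the strains compared, with GC boxes (GGGCGG on either strand) in capitals.
Adra2b (chr3:135038231-135038480, + strand): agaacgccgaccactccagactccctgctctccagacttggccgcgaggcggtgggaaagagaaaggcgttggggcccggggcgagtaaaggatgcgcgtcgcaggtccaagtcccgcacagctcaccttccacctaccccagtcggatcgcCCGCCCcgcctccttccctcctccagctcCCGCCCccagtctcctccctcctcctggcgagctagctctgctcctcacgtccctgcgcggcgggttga
Grk4 (chr14:80305293-80305542, - strand): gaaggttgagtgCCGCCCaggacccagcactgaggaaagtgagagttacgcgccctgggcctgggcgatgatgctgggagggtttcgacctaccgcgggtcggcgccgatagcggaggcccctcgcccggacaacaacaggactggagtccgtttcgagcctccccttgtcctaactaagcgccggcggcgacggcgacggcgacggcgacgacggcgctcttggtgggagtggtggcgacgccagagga
Adra2b has 2 GC boxes, which begin 98 and 69 bases before the start, and Grk4 has 1, which begins 238 bases before it. Of the 7 members with a promoter entry 3 hold a GC box (Drd2 is the other), where 30.5% of 33469 promoters of that length do. The cyclic AMP response element TGACGTCA was in 0 of the 7 and in 1.59% of all, and TATAAA in 0 of the 7 and in 12.9% of all, both strands searched. The members' windows were 51.2% (Drd1) to 72.0% (Adrb1) G or C, against a median of 51.2% over all promoters. These matches describe the reference letters, and the arrays measured no promoter activity.

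Adra2a, the alpha-2A adrenergic receptor, was covered by 5 probe sets that did not agree. The brightest, S79778mRNA_s_at, read 141.0, 150.1 and 38.3 in the congenic samples, against 56.5, 78.1 and 28.1 in the Dahl S samples. Sample 3 was the lowest in each strain, and congenic sample 3 lay below 2 of the 3 Dahl S values. Its log2 difference was 0.90 (SE 0.60, 95% interval -0.46 to 2.27, limma adjusted p = 0.9997), the largest among the members. By the maker's naming, the ending _s_at marks probes that can match more than 1 transcript. Other probe sets described here share it, among them that of Drd2 and the brightest of Acta2 and Tagln.

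The differences of the other tested Adra2a probe sets lay close to 0. U79031_at read 30.6, 40.6 and 29.4 in congenic against 30.4, 32.6 and 36.0 in Dahl S samples, a log2 difference of 0.01 (SE 0.39). The type B probe set rc_AI012449_at read 101.3, 41.1 and 76.6 in congenic against 75.3, 52.3 and 73.9 in Dahl S samples, a log2 difference of 0.04 (SE 0.48). Both lay above the filter level in all 6 samples with the strains intermixed. M62372cds_s_at stayed between 8.5 and 18.6, below the filter level throughout, and rc_AA997357_at was above its level only in congenic sample 1 (83.2) and Dahl S sample 3 (65.4). The mean of the 3 tested probe sets gave 0.32 (SE 0.33), and the value of S79778mRNA_s_at moved with the samples. It was 1.54 without congenic sample 3 (under 0.05 before adjustment, limma adjusted p = 0.9997), and 0.60 without congenic sample 1, 0.56 without congenic sample 2 and 0.49 without Dahl S sample 3.

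The alpha-1 receptor genes differed in how evenly they were measured. Adra1b, the alpha-1B receptor, read 51.7, 57.8 and 42.7 in congenic samples and 38.5, 43.3 and 49.4 in Dahl S samples. The strains overlapped within a 1.5-fold range, with a log2 difference of 0.21 (SE 0.32, 95% interval -0.53 to 0.95). Adra1a, the alpha-1A receptor, read 12.9, 54.4 and 11.7 in congenic and 18.5, 12.3 and 58.8 in Dahl S samples. In each strain 1 sample stood above the filter level, congenic sample 2 and Dahl S sample 3, and the other 4 values lay between 11.7 and 18.5. Its log2 difference was -0.23 (SE 0.83, 95% interval -2.15 to 1.68), and it turned to 0.42 without Dahl S sample 3, to 0.16 without congenic sample 3 and to 0.09 without congenic sample 1. Its within-strain SD of 1.21 log2 units was larger than that of 96.5% of the tested type A probe sets.

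Alpha-1 receptors are expressed by vascular smooth muscle, and markers of that cell type were measured beside them. The summed signal of the 6 smooth muscle markers on the arrays was 728.3 to 1041.3 in congenic and 1028.6 to 1299.6 in Dahl S kidneys, with Des below the filter level in all 6 samples and no marker at 0. With 1 probe set a gene, the brightest, 3 of the 4 tested markers had lower congenic signal and 0 were called. The smallest p was that of Acta2, smooth muscle actin (-0.67 log2, SE 0.27, limma adjusted p = 0.9997), which was under 0.05 before adjustment, followed by Tagln, an actin-binding protein of smooth muscle (-0.38, SE 0.17). The other tested probe sets of Acta2 (-0.52, -0.22 and -0.20) and the Tagln probe set M83107_g_at (-0.29) showed smaller drops than the brightest. Myh11 went the other way, with its tested probe sets at 0.50 (SE 0.71) and 0.14 (SE 0.60). A dimmer probe set of Tagln and another of Myl9 showed larger drops, also under 0.05 before adjustment. The Tagln probe set M83107_at read 149.0, 124.2 and 122.6 in congenic and 247.6, 270.9 and 191.4 in Dahl S samples, without overlap (-0.83, SE 0.21, limma adjusted p = 0.9997). S77900_at of Myl9, a smooth muscle myosin light chain, read 207.0, 60 and 66.7 in congenic and 240.2, 218.5 and 291.7 in Dahl S samples, also without overlap (-1.40, SE 0.44, limma adjusted p = 0.9997), where the brighter Myl9 probe set differed by -0.35 (SE 0.29). The part of smooth muscle content in the Adra1a and Adra1b values was not tested.

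Adrb1, the beta-1 adrenergic receptor, varied most between samples of 1 strain. Its type A probe set read 47.5, 114.4 and 13.7 in congenic samples and 76.6, 20.0 and 26.7 in Dahl S samples, an 8.35-fold range in which congenic samples were both the highest and the lowest. The log2 difference was 0.29 (SE 0.82, 95% interval -1.59 to 2.16), and it turned to -0.43 without congenic sample 2 and to -0.10 without Dahl S sample 2. Its within-strain SD was 1.31 log2 units, larger than that of 97.7% of the tested type A probe sets. The second Adrb1 probe set, on type C, read 1.4 to 16.6 in congenic and 6.1 to 17.1 in Dahl S samples, below the filter level in all 6.

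Drd1, the D1 dopamine receptor, had 3 probe sets, of which 1 was tested. S46131mRNA_r_at read 23.1, 20.6 and 30.2 in congenic samples and 19.4, 10.9 and 32.5 in Dahl S samples, so that 3 of the 6 values were above the filter level. The strains overlapped, with a log2 difference of 0.35 (SE 0.59, 95% interval -0.99 to 1.70). It turned to -0.05 without Dahl S sample 2, the lowest value. The other 2 probe sets gave little signal: S46131mRNA_s_at stood at 18.4 in congenic sample 1 and 17.4 in Dahl S sample 3 and at 3.7 to 4.4 in the others, and M35077_s_at stayed between 0.5 and 4.9, with 5 of 6 values under the floor of 3.1.

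Drd2, the D2 dopamine receptor, read 6.3, 7.6 and 7.5 in congenic samples and 7.7, 8.2 and 7.3 in Dahl S samples. Every value was below the filter level of 21.2, and the strains overlapped. Fitted without the filter, its log2 difference was -0.12 (SE 0.16, limma adjusted p = 1). None of the 15 member probe sets had an unadjusted p under 0.05 in that fit.

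**Figure D2:**
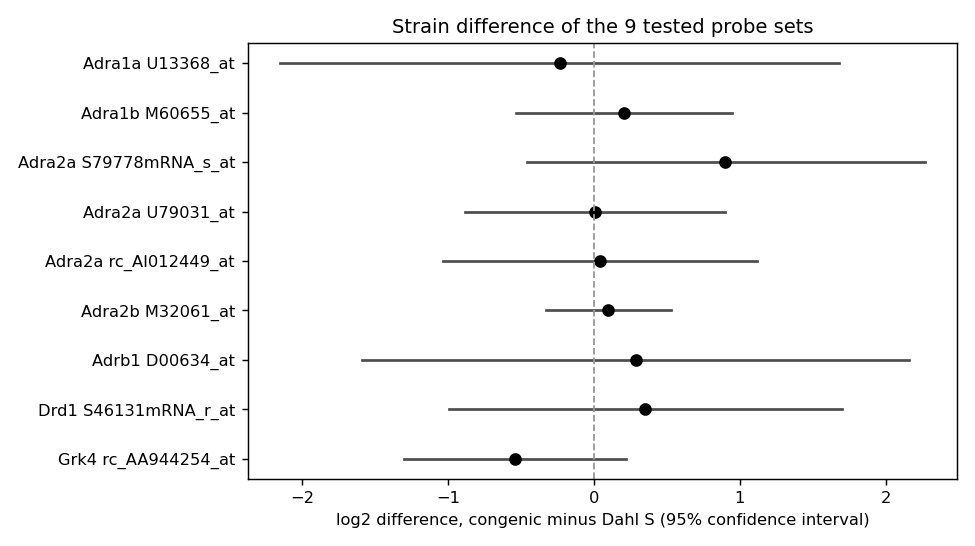
Log2 difference (congenic minus Dahl S, points) with its 95% confidence interval from limma (lines) for the 9 tested probe sets, 3 samples per strain. Every interval includes 0, from the narrow one of Adra2b (-0.33 to 0.53) to the wide one of Adra1a (-2.15 to 1.68).

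The precision of the strain difference therefore varied from gene to gene. The 95% intervals are for single probe sets and, unlike the adjusted p, take no account of the number tested. Their width is not the smallest difference that would be called. The half-width of the 95% interval was 0.43 log2 units for Adra2b and 1.92 for Adra1a, against a median of 0.68 over all tested probe sets. The median within-strain SD of the 9 tested member probe sets was 0.52 log2 units, and that of all tested probe sets was 0.35. The intervals of Adra1a, Adrb1 and the Adra2a probe set rc_AI012449_at (-1.03 to 1.12) reached beyond 1 log2 unit on both sides of 0.

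Adrb1, Adra2a and Adra1a ranged most widely over the 6 samples, and the genes nearest to their pattern on type A were found by the root mean square difference of centred log2 values. Nearest to Adrb1 were Cyp51, a sterol demethylase (0.37), and Psat1, an enzyme of serine synthesis (0.38), where the median over 4295 probe sets was 1.11. Nearest to Adra2a (S79778mRNA_s_at) were the transcription factor Pou2f1 (0.34) and the GDNF receptor Gfra1 (0.36), with a median of 0.95. Nearest to Adra1a were the cysteine dioxygenase Cdo1 (0.42) and the cytokine Il10 (0.46), with a median of 1.03. For example, Cdo1 read 131.7, 359.7 and 81.1 in congenic and 151.3, 122.3 and 251.2 in Dahl S samples, high in the same 2 samples as Adra1a. The measure rests on 6 samples that share their arrays.

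The rest of the pathway was read with 1 probe set a gene, the brightest, and none of the 56 tested genes in 5 lists passed the adjusted threshold in limma. At an unadjusted p under 0.05 there was 1 of 56, against 2.35% of 8168 genes, and the adjusted share over those genes was 0%. The 56 differences had a median of 0.04, and the 8168 a median of -0.01.

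Other adrenergic and dopamine receptors were tested for 3 genes, all with higher congenic signal (median 0.08) and none called. Adra1d, the alpha-1D receptor, read 106.0, 55.9 and 68.8 in congenic and 39.3, 124.2 and 24.6 in Dahl S samples (0.59 log2, SE 0.58), with Dahl S samples both highest and lowest. Drd5, the D1-like D5 receptor, differed by 0.08 (SE 0.29). Drd3, a D2-like receptor, read 474.8 to 603.0 with 1 probe set and 3.0 to 9.1 with another in the 6 samples, so its level is uncertain. Adra2c, Adrb3 and Drd4 were too dim to test.

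Receptor kinases, arrestins and other receptor regulators had 2 tested genes higher and 9 lower in the congenic strain, with a median of -0.10 and 0 called. The smallest p was that of Snx1, a sorting nexin of endosomes, with 196.1, 141.0 and 169.2 in congenic and 324.9, 177.8 and 231.9 in Dahl S samples (-0.51 log2, SE 0.25, limma adjusted p = 0.9997). Congenic sample 1 lay above Dahl S sample 2, so the strains overlapped. Grk2, the receptor kinase that desensitises beta receptors, came next (-0.44, SE 0.39), and its second tested probe set read -0.07. The other kinases of Grk4's family with a tested probe set differed by -0.37 (Grk5, SE 0.61), -0.10 (Grk3, SE 0.27) and -0.01 (Grk6, SE 0.19), all within 1 SE of 0. A second tested Grk6 probe set read -0.26 (SE 0.2), more than 1 SE from 0.

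G proteins, adenylyl cyclases and downstream kinases had 12 of 22 genes higher and 10 lower (median 0.03, 0 called). Gnai2, a Gi subunit, differed by -0.39 (SE 0.22), and its other 3 tested probe sets read -0.35, -0.10 and -0.02. Gnai1, another Gi subunit, differed by 0.92 (SE 0.76), with 1 sample, Dahl S sample 3 at 6.9, below the filter level. Alpha-2 and D2-like receptors couple to Gi. Gna11, a Gq family subunit, differed by 0.61 (SE 0.39), with Dahl S sample 3 (34.9) below the filter level.

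Catecholamine synthesis, transport and clearance had 10 of 11 genes higher and 1 lower (median 0.13, 0 called). The lower one, with the smallest p, was Slc6a3, the dopamine transporter (-0.55, SE 0.52), at 18.0, 22.9 and 18.5 in congenic and 40.7, 32.3 and 18.1 in Dahl S samples, 3 of the 6 values below the filter level. Th, the rate-limiting enzyme of catecholamine synthesis, read 75.8, 100.1 and 57.2 in congenic and 77.5, 47.8 and 66.4 in Dahl S samples (0.27, SE 0.33). Ddc, which makes dopamine from L-DOPA in the proximal tubule, differed by 0.05 (SE 0.20).

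Sodium transport genes had 5 of 9 higher and 4 lower (median 0.10, 0 called). The 1 gene of all 5 lists with an unadjusted p under 0.05 was Slc4a4, the basolateral sodium bicarbonate cotransporter, at 2866.3, 2529.4 and 2640.9 in congenic and 1768.6, 1930.2 and 1371.4 in Dahl S samples, without overlap (0.68 log2, SE 0.17, limma adjusted p = 0.9997), and its other 2 tested probe sets read 0.50 and 0.69. Slc9a3, the sodium-hydrogen exchanger that dopamine inhibits, differed by 0.17 (SE 0.38), and Atp1b1, the beta subunit of the sodium pump, by 0.17 (SE 0.18).

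**Figure D3:**
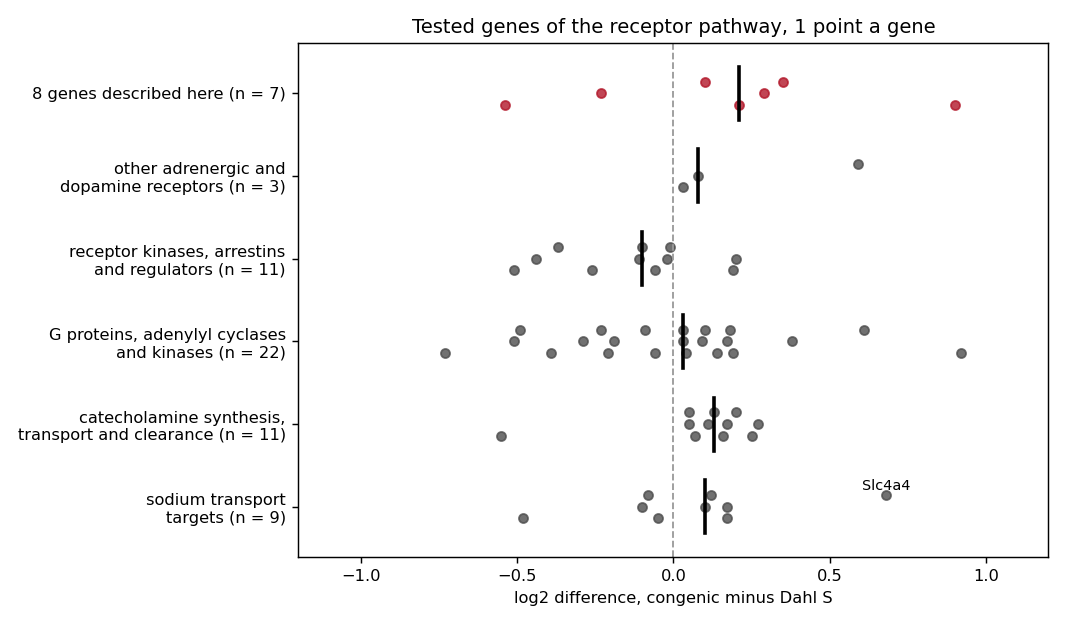
Log2 difference (congenic minus Dahl S) of the tested genes in the member list and 5 pathway lists, 1 point a gene, with a black bar at each list's median. The medians lie between -0.10 (receptor kinases, arrestins and regulators) and 0.21 (the member genes), and Slc4a4, named in the plot, is the point with an unadjusted p under 0.05.

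The samples carried the markers of kidney. Of the 11 tubule and podocyte markers on the arrays, 10 were above the filter level in all 6 samples, with summed signals of 27807.5 to 34359.2 in congenic and 27709.1 to 31073.7 in Dahl S kidneys. Of 11 markers of sympathetic nerve and adrenal medulla, Dbh, Chgb and Scg2 were below the level in all 6 samples, and the sums were 467.3 to 752.0 in congenic and 446.9 to 636.4 in Dahl S kidneys. Sums over 4 adrenal cortex markers were 35.2 to 81.6 in congenic and 33.0 to 82.7 in Dahl S kidneys. Of these, Cyp11b2 and Star were below the level in all 6 samples. Sums over 6 fat markers were 902.1 to 1231.8 in congenic and 870.5 to 1202.1 in Dahl S kidneys. Of these, Adipoq, Plin1, Fabp4 and Cfd were below the level in all 6 samples. Most of each fat sum came from the Lep probe set D49653_s_at, at 752.6 to 1098 in the 6 samples. The other Lep probe sets, D45862_at and D45862_g_at, read 16.7 to 76.9 and 16.2 to 28.9. Fat content therefore cannot be read from these sums. No marker of these lists was at 0, and 0 were called. With the brightest probe set of each gene, the smallest p values were those of the podocyte gene Podxl (1.08 log2, SE 0.54) and the tubule receptor Cubn (0.18, SE 0.12) among kidney markers and of Nefl (-1.31, SE 0.67) and Uchl1 (0.35, SE 0.29) among nerve markers, although the other 4 tested Uchl1 probe sets were below 0 (-0.70 to -0.20). Podxl read 363.6, 289.5 and 365.7 in congenic and 266.1, 277.1 and 55.6 in Dahl S samples, with Dahl S sample 3 far below the rest. Nefl was below the filter level in congenic samples 1 (10.2) and 3 (12.9), and its other probe set read 3.1 to 7.3. Cyp21a1 (-0.01, SE 0.61) was the 1 tested adrenal cortex marker, and Lpl (0.38, SE 0.27) and Lep (0.05, SE 0.19) were the 2 tested fat markers. As a measure of RNA quality, the log2 ratio of the GAPDH control's 3 prime over its 5 prime signal averaged 0.43 in congenic and 0.55 in Dahl S kidneys, and it was lowest in the sample numbered 1 of each strain (0.11 in congenic, 0.31 in Dahl S). The same ratio of the beta-actin control ran the other way between the strains, with averages of 0.97 in congenic and 0.88 in Dahl S kidneys, and was again lowest in the samples numbered 1 (0.50 in congenic, 0.49 in Dahl S).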

How the data were processed

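Total kidney RNA of 3 congenic and 3 Dahl S samples was hybridised to 3 array types each, and groups and sample numbers came from the sample titles. The authors' deposited values are intensity values on a linear scale, with trimmed means (2% off each end) of 150.1 to 150.2 on every array, so they were not rescaled. The step that summarised the probes was not given in the sources used here. Values below the 10th percentile of their array type were raised to it (3.1, 6.8 and 4.9) before log2, 59 control probe sets per type were left out, and those under the 40th percentile of mean log2 signal were not tested, which left 15721 of 26202. Genes were named by the GEO platform annotation (18178 probe sets with 1 symbol, 391 with several, 7633 with none), and all 8 members matched the GRCr8 table by gene ID.

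The strain difference was fitted per array type in R 4.3.3 with limma 3.58.1 (lmFit, and eBayes with a trend), with Benjamini-Hochberg adjustment over all types and a threshold of 0.05. The fit was tested on simulated data. The number of arrays limits the precision. Members, lists and tests were chosen with earlier results of these data known. The text names all members, the 2 genes of each list with the smallest p and the 2 genes most like each of the 3 most variable members; other genes were chosen after their values were seen. Plots were drawn with matplotlib 3.10.9.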

Additional observations from a re-analysis of the deposited data

How the results depend on the processing

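No member, no pathway gene and no probe set at all passed the adjusted limma threshold under any of 17 alternatives (floor, filter, normalization, eBayes settings, replicate block, a term for the samples numbered 1, adjustment within array type, each sample left out), so each count was 0 there. The number of probe sets with an unadjusted limma p under 0.05 did move. It was 391 as reported (of 15721), 798 without the filter (of 26202) and 259 with a filter at the 60th percentile (of 10481). With all 15721 tested it was 819 with the replicate block, 704 with the term for the samples numbered 1, and 345 to 600 with a sample left out. The cause was not tested, except that the filters change how many are tested. With a sample left out, Adra1a ranged from -0.95 to 0.42, Adrb1 from -0.43 to 1.10 and Drd1 from -0.05 to 0.74, each reversing sign. Adra2a by S79778mRNA_s_at (0.49 to 1.54), Adra1b (0.11 to 0.33), Adra2b (0.06 to 0.18) and Grk4 (-0.82 to -0.34) kept theirs.

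Samples with the same number deviated together for number 1 (r = 0.45 over the tested probe sets) and number 3 (0.18) but less for number 2 (0.08), so the numbers were not taken as a pairing. By array type, every r was over 0.1 on types B (0.14 to 0.36) and C (0.18 to 0.49), and every sample there matched its own number best. Type A holds the 7 genes' brightest probe sets. On it number 1 gave 0.53, number 2 gave -0.09 and number 3 gave 0.16, and only number 1 matched its own number best. With the replicate block 0 members were called, and 1 member probe set had an unadjusted limma p under 0.05. It was S79778mRNA_s_at of Adra2a (0.90 log2, SE 0.31, limma adjusted p = 0.9231). The other tested Adra2a probe sets differed by 0.01 and 0.04 as reported. The unadjusted count, 0 of 9 as reported, was also 1 of 9 without congenic sample 3 (the same Adra2a probe set, 1.54) and without Dahl S sample 1 (Grk4, -0.82), and 0 under every other alternative.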
